A study of Mus musculus with 8 samples.

Results

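Desmosomes are the junctions that hold keratinocytes to each other. Their cadherins, the desmogleins (Dsg) and desmocollins (Dsc), bind across the gap between cells, their tails are held by plakoglobin and plakophilins in a plaque on the inner face of the membrane, and desmoplakin ties that plaque to keratin filaments. In stratified epidermis desmoglein 1 and desmocollin 1 are known mainly from the upper, differentiating layers. Desmoglein 3 and desmocollin 3 are known there mainly from the basal and lower layers. Desmoglein 2 and desmocollin 2 are the forms found also in simple epithelia and heart. The genes described here are 10 desmosomal genes, taken by name: the desmoglein genes Dsg1a, Dsg1b, Dsg2 and Dsg3, the desmocollin genes Dsc1, Dsc2 and Dsc3, the desmoplakin gene Dsp and the plakophilin genes Pkp1 and Pkp3. All 10 were found among the 23146 genes of the count files, and all 10 passed the filter on low counts, which left 16342 genes.

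RNA was sequenced from epidermis, lifted off the dermis, of mouse embryos of 2 ages, E15.5 and E17.5 (days of embryonic development), in 8 libraries that form 4 groups of 2. The controls carried floxed alleles of Nir, the gene Noc2l, and the knockouts carried floxed Nir with Krt14-Cre, which expresses Cre recombinase from the promoter of a keratin gene of basal keratinocytes, so other cells in the preparation should keep the gene. The question was the role of Nir in the developing epidermis. The labels do not say whether the replicates of a group came from separate embryos, pools or litters, nor which alleles the controls carried besides the floxed ones.

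Counts assigned to genes summed to between 25226357 and 28895657 per library. Levels are given as CPM, a gene's count relative to the library total after TMM scaling. Noc2l stood at 107 and 97.4 CPM in the E15.5 controls, 95.6 and 91.6 in the E15.5 knockouts, 106 and 121 in the E17.5 controls and 85.4 and 86.9 in the E17.5 knockouts. The log2 fold change was -0.12 ± 0.10 at E15.5 and -0.39 ± 0.10 at E17.5 (adjusted p = 0.33 and 0.0062). Which exons were deleted is not given and reads from all exons were summed, so these levels do not check the genotype labels. Keratinocyte markers were present in every library, and were lower in knockouts. The 8 basal markers summed to 7006 to 7576 CPM in controls and 1140 to 2027 CPM in knockouts, and the 7 suprabasal markers in the table summed to 44431 to 95705 CPM in controls and 1326 to 7465 CPM in knockouts. Summed markers of other cells were higher in the same knockout libraries. The 9 dermal fibroblast markers summed to 26019 to 31829 CPM in controls and 74110 to 99388 CPM in knockouts, the 6 endothelial markers to 379 to 432 and 686 to 723 CPM, the 5 myeloid markers in the table to 141 to 158 and 312 to 603 CPM, the 6 erythroid markers to 2216 to 7604 and 23707 to 54629 CPM, the 7 skeletal muscle markers to 9289 to 12580 and 16304 to 34389 CPM, and the 6 melanocyte markers to 303 to 385 and 497 to 622 CPM. A higher sum does not mean that every marker rose: of the 6 melanocyte markers, 6 rose at E15.5 and 3 at E17.5. The 8 periderm markers, of the outer cell layer of embryonic skin, did not move 1 way: at each stage 5 rose and 3 fell. No gene of these marker lists was at 0 in any library. Fibroblast and skeletal muscle markers were present in controls as well, so all libraries hold RNA of tissue other than keratinocytes. In such a mixture, fewer cells of a type, less RNA per cell and more RNA of other tissue cannot be told apart. The part of the cell mixture in the results below was not tested.

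Of the 10 genes, 8 fell in knockout epidermis at both stages, Dsg3 fell at E17.5 only, and Dsc2 rose at both. The 8 include Dsg2, a form found also in simple epithelia. At E15.5, 8 of the 10 genes fell and 1 rose by the quasi-likelihood test of edgeR with Benjamini-Hochberg adjusted p under 0.05, against 22.3% of all genes tested that fell and 23.2% that rose. All of these 9 changes were at least 2-fold, a size at which 9.45% of all genes fell and 8.77% rose. At E17.5, 9 of the 10 fell and 1 rose, against 26.7% of all genes that fell and 26.7% that rose, and 8 of the 9 falls and the rise were at least 2-fold, against 10.9% and 13.4% of all genes. The median log2 fold change over the 10 genes was -2.03 at E15.5 and -2.95 at E17.5, where the medians of all genes tested were -0.0047 and -0.02. The E17.5 background depends on scaling: with library totals as the only scaling, 3295 genes rose and 6284 fell in place of 4371 and 4364, and the median of all genes was -0.23. The counts of 9 and 10 called genes held under all alternatives run.

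**Figure D1:**
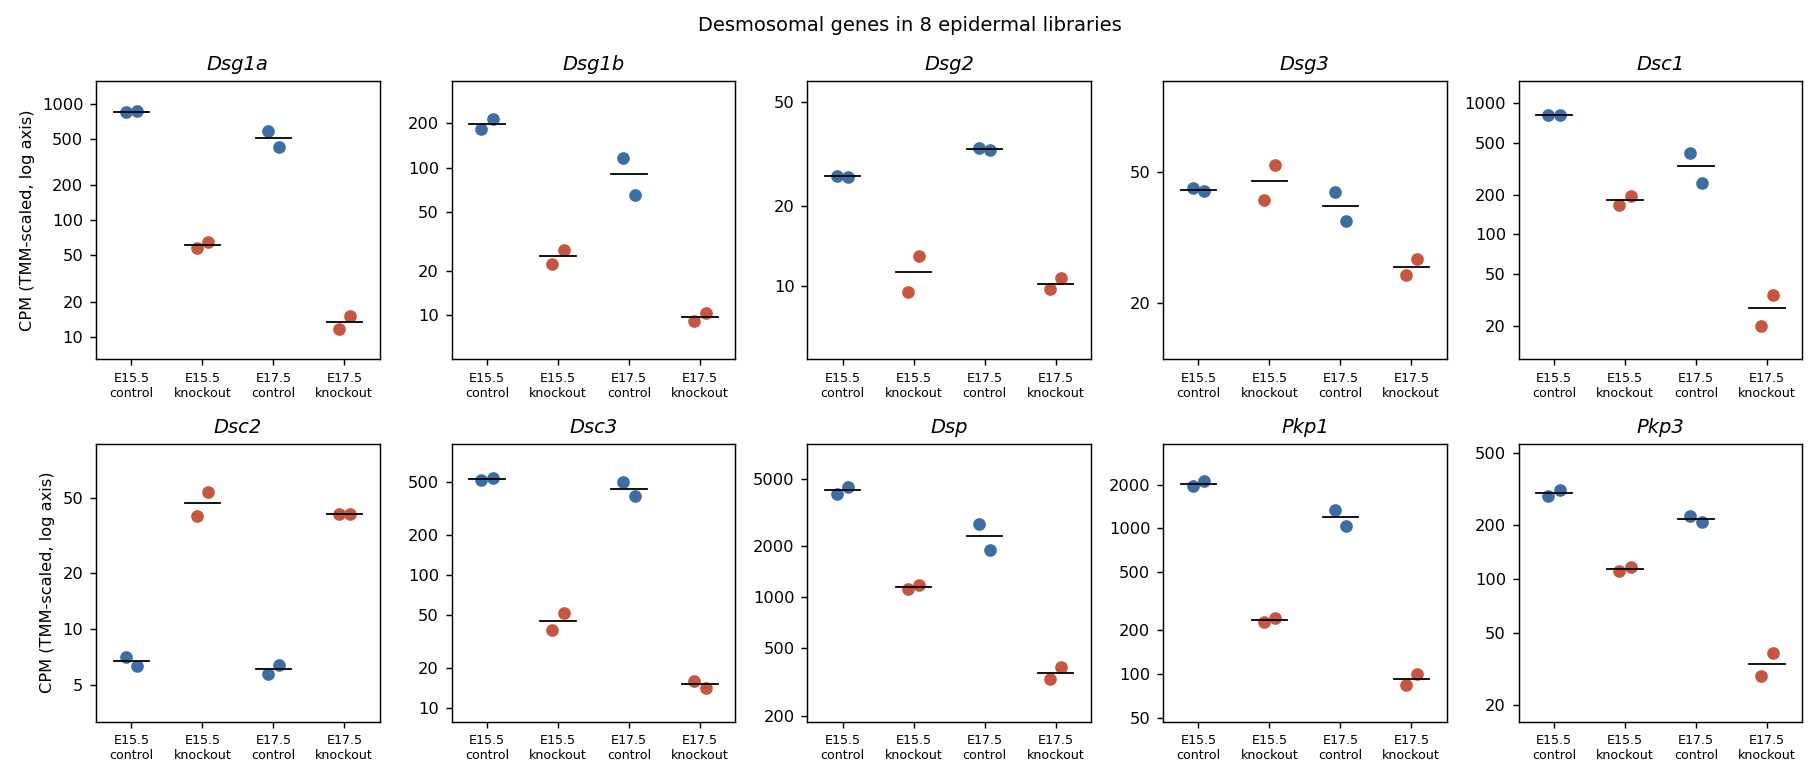
Level of each of the 10 genes in every library, in CPM on a log axis, with 2 dots per group (controls blue, knockouts red) and a line at the group mean. Dsc2 lies at 5.76 to 7.10 CPM in the 4 controls and at 40.3 to 54.1 CPM in the 4 knockouts, whereas the other genes are lower in knockouts, except Dsg3 at E15.5, whose groups overlap.

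Dsp was the gene with the most counts of the set. It encodes desmoplakin, the plaque protein that binds keratin filaments, and its position is chromosome 13, 38151294 to 38198577 (GRCm38, plus strand). Of the 10 genes, only Dsp was matched to an entry of the RefSeq promoter table of GRCm38.p6, and that stretch, chr13:38151044-38151343 on the plus strand, 250 bases before to 50 bases after the start, is shown because it is the regulatory sequence at hand for a gene that fell at both stages. The capitals mark GC boxes, the letters GGGCGG on either strand.

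Dsp promoter: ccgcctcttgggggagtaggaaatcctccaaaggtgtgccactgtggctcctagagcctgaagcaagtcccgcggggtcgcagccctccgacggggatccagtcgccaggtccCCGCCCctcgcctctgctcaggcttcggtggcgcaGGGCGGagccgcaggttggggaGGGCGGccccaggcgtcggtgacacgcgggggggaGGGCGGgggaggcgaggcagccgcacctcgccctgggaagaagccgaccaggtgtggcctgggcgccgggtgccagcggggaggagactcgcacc

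The letters GGGCGG occur 4 times in this window, on either strand and without overlap with each other, and 35.7% of the 32851 promoters in the table hold them. The window is 73.0% G and C, against a median of 52.7% over all promoters. A TATA box (TATAAA, in 13.6% of promoters), an AP-1 site (TGANTCA, in 7.81%), a Grainyhead site (AACCGGTT, in 0.146%) and a CAAT box (CCAAT, in 37.4%) were searched on both strands and these letters are not in the window. An E box (CANNTG, in 72.3% of promoters) occurs 1 time.

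Dsp stood at 4094 and 4485 CPM in the E15.5 controls, 1122 and 1190 CPM in the E15.5 knockouts, 2713 and 1903 CPM in the E17.5 controls and 332 and 386 CPM in the E17.5 knockouts. All knockout libraries lay below all control libraries. The log2 fold change was -1.89 ± 0.17 (SE, n = 2 per group) at E15.5 and -2.69 ± 0.18 at E17.5 (edgeR, adjusted p = 6.5e-06 and 3.5e-07). A predicted gene, Gm10129, overlaps Dsp on the opposite strand, and because the strand setting of the counting is not given, its reads cannot be told apart from those of Dsp.

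Pkp1 encodes plakophilin 1, the plakophilin of the differentiating layers of stratified epithelia, and lies on chromosome 1 (135871395 to 135919207, minus strand). Pkp1 stood at 1946 and 2117 CPM in the E15.5 controls, 228 and 243 CPM in the E15.5 knockouts, 1345 and 1042 CPM in the E17.5 controls and 84.7 and 100 CPM in the E17.5 knockouts. Every knockout library lay below the lowest control library of its stage. The log2 fold change was -3.11 ± 0.16 at E15.5 and -3.69 ± 0.16 at E17.5 (adjusted p = 6.4e-08 and 1.3e-08). A predicted gene on the same strand, Gm36938, overlaps Pkp1, and its reads cannot be told apart.

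Pkp3 encodes plakophilin 3, found in desmosomes of nearly all epidermal layers, and lies on chromosome 7 (141078218 to 141090510, plus strand). It stood at 290 and 313 CPM in the E15.5 controls, 110 and 117 CPM in the E15.5 knockouts, 223 and 208 CPM in the E17.5 controls and 29.0 and 38.6 CPM in the E17.5 knockouts. The groups were apart at both stages. Its fold change was -1.41 ± 0.13 on the log2 scale at E15.5 and -2.67 ± 0.14 at E17.5 (adjusted p = 6.0e-06 and 3.8e-08). The files hold 2 RefSeq transcripts of Pkp3 with nearly the same counts, 36607 and 36504 over all libraries, and the first was used.

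Among the cadherins, the largest falls of the set were those of Dsg1a and Dsc3. Dsg1a encodes a mouse desmoglein 1, a cadherin of the upper layers. It stood at 849 and 876 CPM in the E15.5 controls, 58.2 and 65.5 CPM in the E15.5 knockouts, 588 and 432 CPM in the E17.5 controls and 11.6 and 15.2 CPM in the E17.5 knockouts. At E17.5 its control level was 38.1 times its knockout level (log2 fold change -5.25 ± 0.19, adjusted p = 4.2e-09), and at E15.5 13.9 times.

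Dsg1b, a close copy of Dsg1a, stood at 182 and 214 CPM in the E15.5 controls, 22.3 and 27.8 CPM in the E15.5 knockouts, 116 and 65.4 CPM in the E17.5 controls and 9.13 and 10.4 CPM in the E17.5 knockouts. The groups did not overlap at either stage. The log2 fold change was -2.98 ± 0.23 at E15.5 and -3.21 ± 0.24 at E17.5 (adjusted p = 1.8e-06 and 8.9e-07). These values are uncertain as measures of the separate copies: of the 50-base stretches of the Dsg1a transcript, 31.6% also occur in Dsg1b, and of those of Dsg1b, 45.5% occur in Dsg1a, and how the counting treated reads that match several places is not given.

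Dsc3 encodes desmocollin 3, the desmocollin of the basal and lower layers. It was at 517 and 534 CPM in the E15.5 controls, 38.4 and 51.7 CPM in the E15.5 knockouts, 495 and 388 CPM in the E17.5 controls and 15.9 and 14.2 CPM in the E17.5 knockouts. The knockout libraries lay below the controls throughout, with log2 fold changes of -3.55 ± 0.17 and -4.88 ± 0.18 (adjusted p = 4.5e-08 and 4.2e-09).

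Dsc1 encodes desmocollin 1, which accompanies desmoglein 1 in the upper layers. It stood at 821 and 820 CPM in the E15.5 controls, 166 and 198 CPM in the E15.5 knockouts, 420 and 245 CPM in the E17.5 controls and 20.2 and 34.5 CPM in the E17.5 knockouts. The groups were apart at both stages. Dsc1 fell by 2.17 ± 0.26 on the log2 scale at E15.5 and by 3.60 ± 0.28 at E17.5 (adjusted p = 4.5e-05 and 1.1e-06).

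Dsg3 was the 1 gene of the set that was not called at E15.5. It encodes desmoglein 3, the basal desmoglein and the target of the antibodies of pemphigus vulgaris. It had 44.7 and 43.9 CPM in the E15.5 controls and 41.2 and 52.8 CPM in the E15.5 knockouts, so the groups overlapped, and the log2 fold change of 0.09 ± 0.14 did not pass the test (adjusted p = 0.65). Without E15.5 knockout replicate 2 that value was -0.11. In the E17.5 controls Dsg3 had 43.6 and 35.4 CPM and in the E17.5 knockouts 24.2 and 27.2 CPM, without overlap, and it fell (log2 fold change -0.62 ± 0.15, adjusted p = 0.0038). Of all genes tested, 19.0% had a lower log2 fold change at that stage.

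Dsg2 and Dsc2, the forms found also in simple epithelia, did not move together. Dsg2 stood at 26.1 and 26.0 CPM in the E15.5 controls, 9.48 and 13.0 CPM in the E15.5 knockouts, 33.3 and 32.7 CPM in the E17.5 controls and 9.68 and 10.7 CPM in the E17.5 knockouts. It fell at both stages, with log2 fold changes of -1.21 ± 0.15 and -1.70 ± 0.15 (adjusted p = 6.7e-05 and 3.7e-06). A predicted gene, Gm16090, overlaps Dsg2 on the opposite strand, and its reads cannot be told apart from those of Dsg2.

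Dsc2, the desmocollin found also in simple epithelia and heart, was the gene of the set that rose. It stood at 7.10 and 6.38 CPM in the E15.5 controls, 40.3 and 54.1 CPM in the E15.5 knockouts, 5.76 and 6.42 CPM in the E17.5 controls and 41.1 and 41.0 CPM in the E17.5 knockouts. The lowest knockout library was above the highest control library at each stage. The rise was 7.01-fold at E15.5 and 6.72-fold at E17.5 (log2 fold changes 2.81 ± 0.16 and 2.75 ± 0.16, adjusted p = 1.7e-07 and 1.2e-07). In order of log2 fold change it ranked 133 from the top of 16342 genes at E15.5 and 263 at E17.5. In the same libraries the median log2 fold change of the fibroblast markers was 1.33 at E15.5 and 1.32 at E17.5, that of the skeletal muscle markers 0.57 and 1.34, that of the myeloid markers 1.23 and 2.02, that of the erythroid markers 2.75 and 3.20, and that of the simple epithelial genes 0.74 and 1.46. The endothelial markers had medians of 0.69 and 0.80, and the melanocyte markers of 0.77 and 0.35. The median of the periderm markers, which share Krt8, Krt18 and Krt19 with the simple epithelial genes, was 2.61 and 2.73. Their part in the rise of Dsc2 was not tested.

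**Figure D2:**
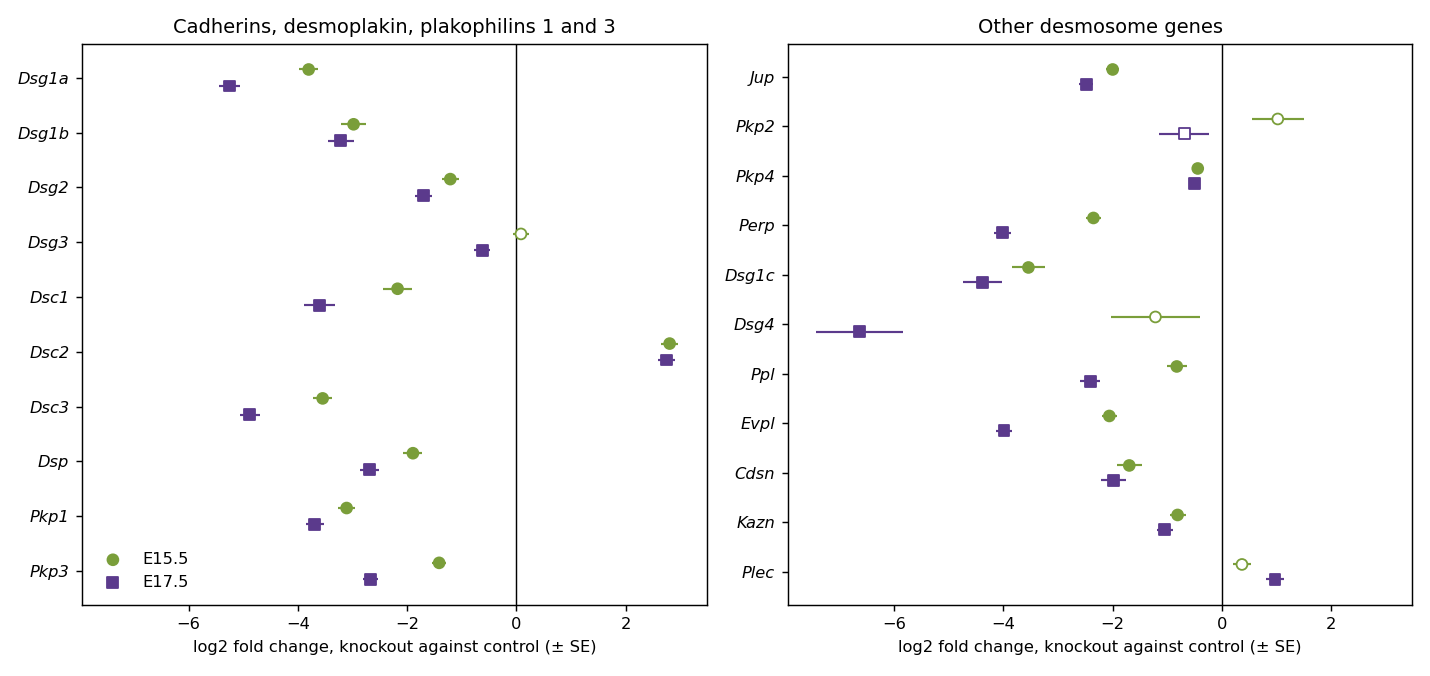
Log2 fold change of knockout against control, with its SE, at E15.5 (circles) and E17.5 (squares) for the 10 genes (left) and 11 other desmosome genes (right). Filled symbols passed the edgeR test at an adjusted p under 0.05. Dsc2 alone of the left panel is to the right of 0 and filled, and the Dsg4 value at E17.5 rests on 2 knockout counts.

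Levels of different genes were compared per kilobase of transcript (CPM per kb), with lengths from GENCODE M21. In E15.5 controls the order of the 10 genes ran Dsp (447 CPM per kb), Pkp1 (435), Dsc1 (217), Dsc3 (168), Dsg1a (152), Pkp3 (106), Dsg1b (49.9), Dsg3 (7.13), Dsg2 (4.51) and Dsc2 (1.46). Dsp and Pkp1 overlapped between libraries and the other neighbours were apart. In E15.5 knockouts Dsp (121) was followed by Pkp1 (50.5) and Dsc1 (48.2), which overlapped, Pkp3 (39.8), Dsc3 (14.4), Dsg1a (10.9) and Dsc2 (10.2), which overlapped, Dsg3 (7.57) and Dsg1b (6.32), which overlapped, and Dsg2 (1.95). In E17.5 controls Pkp1 (256 CPM per kb) and Dsp (241) overlapped at the top, Dsc3 (141) stood above Dsg1a (89.7), Dsc1 (88.1) and Pkp3 (75.6), of which neighbours overlapped. Dsg1b (22.9) came next, and Dsg3 (6.36) overlapped Dsg2 (5.72) above Dsc2 (1.32). In E17.5 knockouts the order was Dsp (37.4), Pkp1 (19.8), Pkp3 (11.9), Dsc2 (8.86), Dsc1 (7.25), Dsc3 (4.80), Dsg3 (4.14), Dsg1b (2.47), Dsg1a (2.36) and Dsg2 (1.77). Dsc2 and Dsc1 overlapped there, as did Dsg1b and Dsg1a. Dsc2, lowest of the 10 in both control groups, was thus the fourth in E17.5 knockouts, and Dsg2 was the lowest in both knockout groups.

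The mix of forms within each cadherin family differed between genotypes. Of all desmocollin CPM per kb, Dsc2 made up 0.399% and 0.353% in the E15.5 controls, 13.4% and 14.5% in the E15.5 knockouts, 0.460% and 0.728% in the E17.5 controls and 46.0% and 39.3% in the E17.5 knockouts. The share of Dsc3 was 43.0% and 43.9% in the E15.5 controls, 18.9% and 20.5% in the E15.5 knockouts, 58.5% and 65.2% in the E17.5 controls and 26.3% and 20.1% in the E17.5 knockouts. The summed desmocollin level itself was lower in knockouts, at 65.1 and 80.5 against 384 and 390 CPM per kb at E15.5 and at 19.3 and 22.5 against 271 and 191 CPM per kb at E17.5. Dsc2 itself rose from a mean of 1.46 to 10.2 CPM per kb at E15.5 and from 1.32 to 8.86 CPM per kb at E17.5.

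Of all desmoglein CPM per kb, Dsg1c and Dsg4 included, Dsg1a made up 67.4% and 65.2% in the E15.5 controls, 40.3% and 37.4% in the E15.5 knockouts, 66.4% and 69.3% in the E17.5 controls and 20.1% and 22.4% in the E17.5 knockouts. Dsg3 went from 3.25% and 2.99% to 26.1% and 27.6% at E15.5 and from 4.50% and 5.21% to 38.3% and 36.7% at E17.5. Dsg2 went from 2.04% and 1.91% to 6.47% and 7.33% at E15.5 and from 4.44% ± 1.0 (SD, n = 2) to 16.0% ± 0.67 at E17.5. Dsg2 gained share while it fell in level, as Dsg1a fell further. Within the pair, the ratio of Dsg2 to Dsg3 per kb went down in knockouts, from 0.628 and 0.637 to 0.248 and 0.265 at E15.5 and from 0.823 and 0.993 to 0.431 and 0.423 at E17.5.

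**Figure D3:**
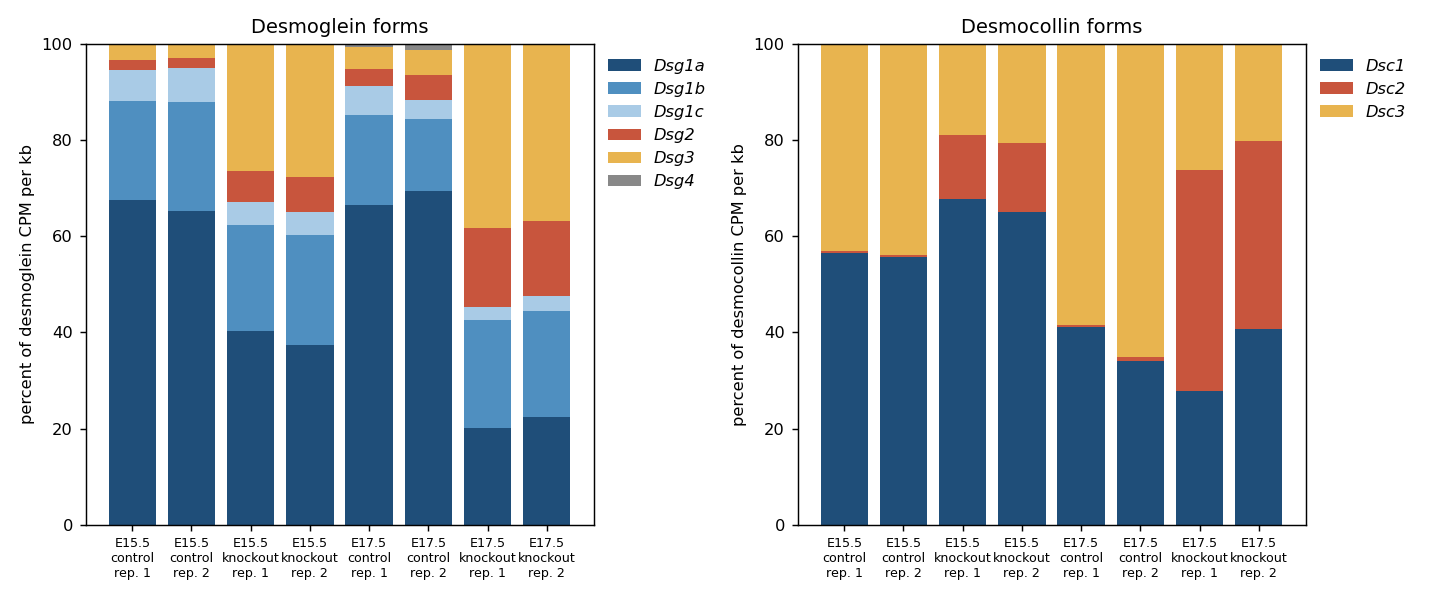
Share of each form in the summed CPM per kb of the desmogleins (left) and desmocollins (right) in each library, as stacked bars that add up to 100%. The Dsc2 part is under 1% in the 4 controls and 13.4% to 46.0% in the 4 knockouts, and the Dsg3 part is 26.1% to 38.3% in knockouts.

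Relative to the summed stratified forms, Dsg2 and Dsc2 were both higher in all knockout libraries than in all control libraries. The log2 ratio of Dsg2 to Dsg1a, Dsg1b and Dsg3, per kb, was -5.49 and -5.58 in the E15.5 controls, -3.78 and -3.58 in the E15.5 knockouts, -4.60 and -4.12 in the E17.5 controls and -2.30 and -2.39 in the E17.5 knockouts. The mean difference over the stages was 1.93, with a replicate SD of 0.19. With the mean of the 3 log2 values in place of their sum, it was 1.16. The log2 ratio of Dsc2 to Dsc1 and Dsc3 was -7.97 and -8.14 in the E15.5 controls, -2.70 and -2.56 in the E15.5 knockouts, -7.76 and -7.09 in the E17.5 controls and -0.23 and -0.63 in the E17.5 knockouts. Its mean difference was 6.21, with a replicate SD of 0.29. For each ratio the exact two-sided permutation test within stages gave p = 0.0556, which is the smallest p that its 36 arrangements allow, so this test cannot pass 0.05.

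The cadherin genes lie side by side on chromosome 18, with 9 cadherin genes within 644 kb (19960930 to 20604521, GRCm38). The order is Dsc3, Dsc2 and Dsc1 on the minus strand and then Dsg1c, Dsg1a, Dsg1b, Dsg4, Dsg3 and Dsg2 on the plus strand. Dsc2 (20030633 to 20059554) thus sits between Dsc3 (19960930 to 20002351) and Dsc1 (20084184 to 20114871), each of which fell at both stages while Dsc2 rose. At the other end, Dsg3 (20510274 to 20547459) and Dsg2 (20558074 to 20604521) are neighbours, and their E15.5 log2 fold changes were 0.09 and -1.21. The remaining desmogleins of the cluster, Dsg1c and Dsg4, are described with the other desmosome genes.

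**Figure D4:**
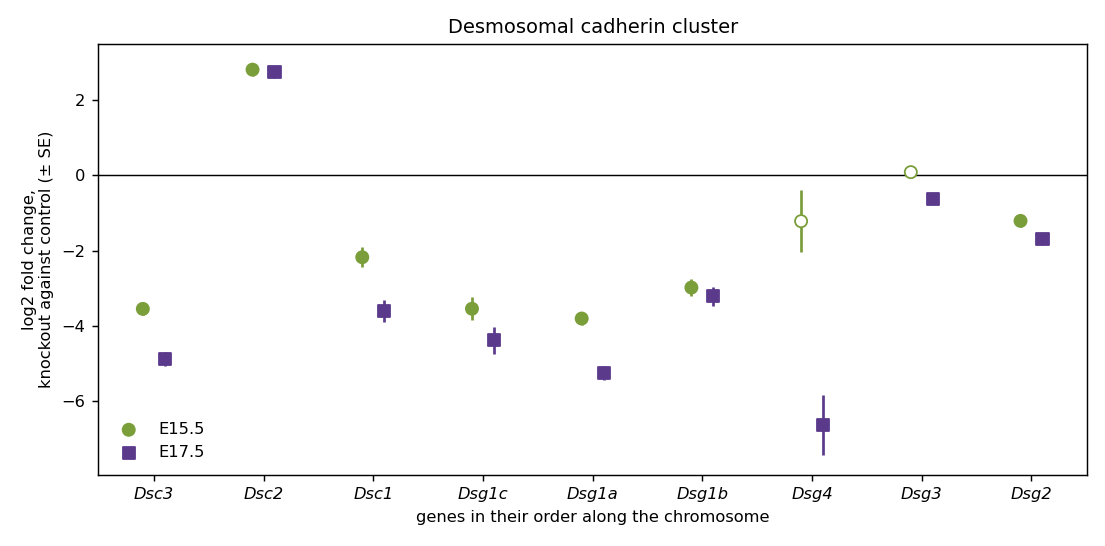
Log2 fold change of knockout against control, with its SE, for the 9 desmosomal cadherin genes in their order along the chromosome, not to distance, at E15.5 (circles) and E17.5 (squares), with filled symbols for an adjusted p under 0.05. Dsc2 stands at 2.81 and 2.75 between neighbours Dsc3 and Dsc1, which lie at -2.17 or lower. The Dsg4 value at E17.5 rests on 2 knockout counts, and Dsg4 passed the filter on low counts only through the E17.5 controls.

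Dsp at both stages and Pkp3 at E17.5 fell by amounts similar to that of Cdh1, and most other genes of the set departed further from Cdh1. Cdh1 encodes E-cadherin, the adhesion protein of adherens junctions in keratinocytes of all layers. It fell as well (log2 fold change -1.99 ± 0.12 at E15.5 and -2.78 ± 0.13 at E17.5), and it was taken as a reference after its values were seen. The log2 ratio of Dsp to Cdh1 was 3.70 and 3.68 in the E15.5 controls and 3.83 and 3.74 in the E15.5 knockouts. It was 3.26 and 2.94 in the E17.5 controls and 3.20 and 3.22 in the E17.5 knockouts. The difference was 0.10 at E15.5, where the groups were apart, and 0.11 at E17.5, where they overlapped. Relative to Cdh1, knockouts were lower for Dsg1a (by log2 differences of -1.81 at E15.5 and -2.47 at E17.5), Dsc3 (-1.57 and -2.09), Pkp1 (-1.12 and -0.91), Dsg1b (-0.99 and -0.38) and Dsc1 (-0.19 and -0.83). They were higher for Dsc2 (4.79 and 5.53), Dsg3 (2.07 and 2.16), Dsg2 (0.76 and 1.08) and, at E15.5, Pkp3 (0.58), whose groups overlapped at E17.5 (0.09). These differences were not tested, and a ratio shows unequal change, not which gene changed.

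**Figure D5:**
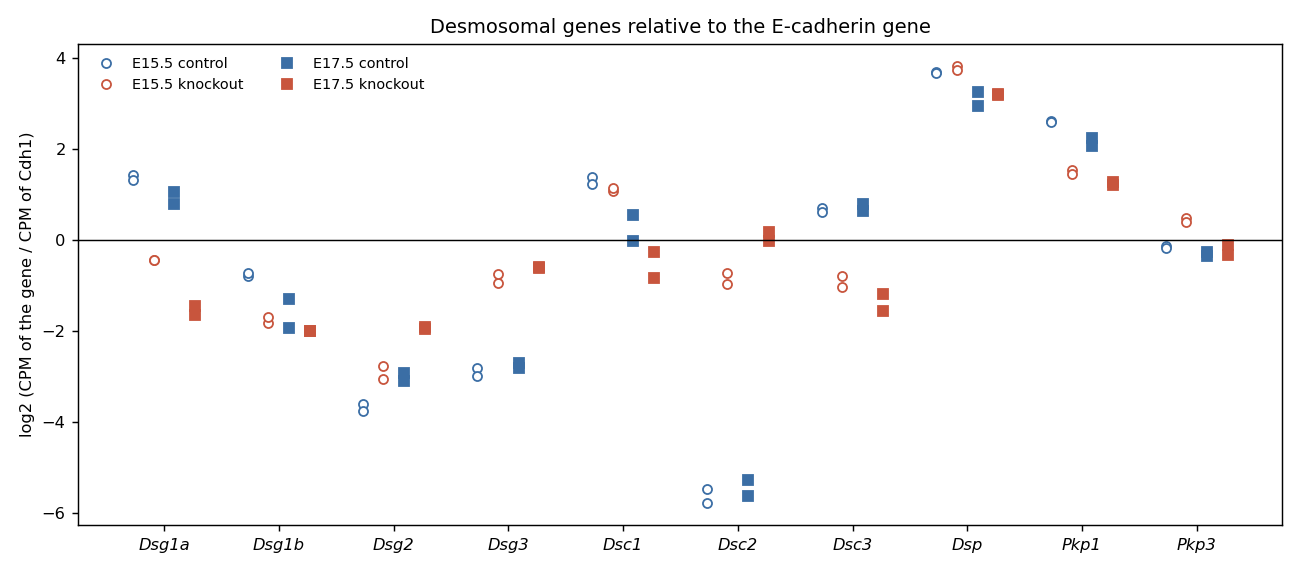
Log2 ratio of each gene's CPM to that of Cdh1 in every library, at E15.5 (open circles) and E17.5 (filled squares), with controls blue and knockouts red. For Dsp the group means differ by 0.10 and 0.11, whereas for Dsc2 they differ by 4.79 and 5.53.

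The fall was larger at E17.5 than at E15.5 for 4 of the genes. The difference between the log2 fold changes (E17.5 minus E15.5) was -1.45 ± 0.23 for Dsg1a, -1.33 ± 0.22 for Dsc3, -1.26 ± 0.18 for Pkp3 and -1.43 ± 0.36 for Dsc1 (edgeR, adjusted p = 0.0049, 0.0063, 0.0026 and 0.0486), against 2.47% of all genes with a negative and 1.88% with a positive difference that passed. The Dsc1 call is near the threshold and was lost without either E15.5 control, either E15.5 knockout, E17.5 control replicate 1 or E17.5 knockout replicate 1 (adjusted p = 0.063 to 0.15), and its difference was -0.99 without E17.5 control replicate 1 and -1.88 at most when a library was left out. For Dsg3 (-0.71 ± 0.20, adjusted p = 0.084), Dsp (-0.79 ± 0.24, 0.098), Pkp1 (-0.58 ± 0.21, 0.15), Dsg2 (-0.49 ± 0.21, 0.26), Dsg1b (-0.23 ± 0.32, 0.78) and Dsc2 (-0.06 ± 0.22, 0.93) the difference did not pass. Some of these calls depend on the settings. Dsc1 did not pass under DESeq2 (adjusted p = 0.11), with RLE size factors (0.051) or with summed transcripts (0.058). Dsp passed under DESeq2 (adjusted p = 0.0070), without the filter on low counts (0.041), with library totals (0.028) and without E17.5 control replicate 2 (0.024). Dsg3 passed under DESeq2 (adjusted p = 0.044), without that filter (0.04996), with library totals (0.030) and without E15.5 knockout replicate 1 (0.041), and Pkp1 passed with library totals (0.049). Library totals as the only scaling shift the median of all genes by -0.21 here, and the all-gene split was then 142 higher and 655 lower in place of 308 and 403.

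From E15.5 to E17.5, control epidermis lost part of the same transcripts. In controls 6 of the 10 genes fell, against 7.7% of all genes that fell and 3.15% that rose: Dsc1 (-1.30 ± 0.25), Dsg1b (-1.12 ± 0.21), Dsp (-0.89 ± 0.17), Pkp1 (-0.77 ± 0.15), Dsg1a (-0.76 ± 0.16) and Pkp3 (-0.49 ± 0.13), with edgeR adjusted p from 0.0061 to 0.031. Dsg2 (0.34 ± 0.15), Dsc3 (-0.25 ± 0.15), Dsg3 (-0.17 ± 0.14) and Dsc2 (-0.14 ± 0.17) did not pass. With library totals as the only scaling, Dsg2 rose (0.53, adjusted p = 0.047) and Pkp3 did not pass (-0.29, adjusted p = 0.15), and with upper-quartile factors Pkp3 did not pass either (adjusted p = 0.061). Pkp3 also did not pass without any 1 of the 4 control libraries (adjusted p = 0.057 to 0.19). Without E15.5 control replicate 2 or without E17.5 control replicate 2 only 1 of the 6 calls was left, Dsc1 in the former case and Dsg1b in the latter. The all-gene background of this comparison depends on scaling, with 515 genes higher and 1259 lower as fitted, 686 and 979 with upper-quartile factors, and 1486 and 762 with library totals, under which the median of all genes was 0.19.

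Knockout epidermis also had less of these transcripts at the later stage. Between E15.5 and E17.5 knockouts 8 of the 10 genes fell, against 6.91% of all genes that fell and 6.19% that rose: Dsc1 (-2.73 ± 0.27), Dsg1a (-2.21 ± 0.17), Pkp3 (-1.74 ± 0.13), Dsp (-1.69 ± 0.17), Dsc3 (-1.59 ± 0.16), Dsg1b (-1.36 ± 0.24), Pkp1 (-1.35 ± 0.15) and Dsg3 (-0.87 ± 0.15), with edgeR adjusted p from 5.9e-06 to 0.0026. Dsc2 (-0.20 ± 0.14, adjusted p = 0.43) and Dsg2 (-0.15 ± 0.16, 0.63) did not pass. Dsc2 and Dsg2 were thus the genes whose knockout level did not pass a test of change with stage. This comparison and the knockout effects share libraries, so the values stand side by side and are not independent.

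Most other genes of the desmosome also fell. Of 11, 8 fell at E15.5 and 9 fell at E17.5, when 1 rose, with median log2 fold changes of -1.22 and -2.41. The 9 include Dsg4, which passed the filter on low counts only through its E17.5 controls. Of all genes tested, 22.3% fell and 23.2% rose at E15.5, and 26.7% fell and 26.7% rose at E17.5. Jup encodes plakoglobin, the plaque protein that both cadherin families bind, and stood at 1522 and 1601 CPM in the E15.5 controls, 373 and 409 CPM in the E15.5 knockouts, 1065 and 944 CPM in the E17.5 controls and 173 and 188 CPM in the E17.5 knockouts (log2 fold changes -1.999 ± 0.12 and -2.48 ± 0.13). Perp, which encodes a membrane protein of desmosomes, also fell (-2.35 ± 0.14 and -4.01 ± 0.15). The envoplakin gene Evpl (-2.06 ± 0.13 and -3.99 ± 0.14) and the periplakin gene Ppl (-0.83 ± 0.18 and -2.41 ± 0.19), whose products line the envelope of cornified cells near desmosomes, fell as well, as did Cdsn (-1.70 ± 0.23 and -1.98 ± 0.23), which encodes corneodesmosin, a glue of the modified desmosomes of the cornified layer. Kazn, which encodes the periplakin-binding protein kazrin, fell (-0.81 ± 0.15 and -1.04 ± 0.15).

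Pkp4, another plakophilin gene, changed less than Pkp1 and Pkp3. Pkp4 stood at 112 and 107 CPM in the E15.5 controls, 78.9 and 82.9 CPM in the E15.5 knockouts, 117 and 101 CPM in the E17.5 controls and 74.8 and 78.9 CPM in the E17.5 knockouts (-0.44 ± 0.10 and -0.50 ± 0.10, adjusted p = 0.0038 and 0.0014). Per kb, its share of the 4 plakophilin genes was 4.22% ± 0.37 (SD, n = 2) in E15.5 controls, 16.2% ± 0.15 in E15.5 knockouts, 6.66% ± 0.29 in E17.5 controls and 34.3% ± 2.4 in E17.5 knockouts, while that of Pkp1 was 77.0% ± 0.38, 46.5% ± 0.034, 71.7% ± 2.4 and 40.5% ± 0.45. Pkp2, the plakophilin of heart and simple epithelia, was low throughout, at 0.529 to 2.64 CPM, and did not pass at either stage (1.02 ± 0.48 and -0.69 ± 0.46, adjusted p = 0.10 and 0.23). Plec, which encodes plectin, a linker of keratin to other structures that many cell types express, rose at E17.5 (0.97 ± 0.17, adjusted p = 0.00045) and did not pass at E15.5 (0.37 ± 0.16, adjusted p = 0.088).

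Dsg1c, the third mouse desmoglein 1 gene, fell (-3.54 ± 0.31 and -4.37 ± 0.36), and shares 26.2% of its 50-base stretches with Dsg1a. Dsg4, the desmoglein of hair and the cornified layer, had 14 and 4 counts in the E15.5 controls, 6 and 2 in the E15.5 knockouts, 93 and 146 in the E17.5 controls and 0 and 2 in the E17.5 knockouts. Dsg4 passed the filter on low counts only through the E17.5 controls, where it is high, so its fall at E17.5 is not independent of that filter. Its ratio of control to knockout at E17.5 was 112 with a 95% counting interval of 30.8 to 933, which covers counting error only. At E15.5 it did not pass (adjusted p = 0.25).

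Of 12 adherens junction genes 6 fell and 3 rose at E15.5 and 8 fell and 2 rose at E17.5, with medians of -0.37 and -0.53. The shares of all genes that fell (22.3% and 26.7%) and rose (23.2% and 26.7%) apply here too, and the number that rose was near or below them. The genes with the smallest adjusted p at E17.5 were Cdh3, which encodes P-cadherin (-4.00 ± 0.13), Cdh1 (-2.78 ± 0.13) and Nectin1 (-1.94 ± 0.12). Of 11 simple epithelial genes, 5 rose and 3 fell at E15.5 and 7 rose and 2 fell at E17.5, with medians of 0.74 and 1.46. The number that fell was near or below the share of all genes that fell, 22.3% and 26.7%, while 23.2% and 26.7% of all genes rose. Krt8 and Krt18, the keratin pair of simple epithelia and of the periderm, were among those that rose, Krt18 with a log2 fold change of 6.42 ± 0.18 at E17.5. Krt8 was at 7.02 and 7.34 CPM in the E15.5 controls, 56.4 and 57.8 CPM in the E15.5 knockouts, 2.94 and 3.60 CPM in the E17.5 controls and 59.0 and 75.3 CPM in the E17.5 knockouts. The 2 that fell at E17.5 were Cdh1, which is on both lists, and the adhesion gene Epcam (-2.19 ± 0.13), named after its values were seen.

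A search for like patterns used Pearson's correlation of log2 CPM over the 8 libraries. It left out the 10 genes of the set and loci named only by a clone or a number. The genes most like a member were sought among the other 13062 genes with a mean log2 CPM of 1 or higher. They were Gfra1 (r = 0.998), Lrrc17 (0.998) and Tcaf1 (0.996) for Dsc2, Lamc3 (0.997), Sqle (0.994) and Gtf2f2 (0.994) for Dsg2, Rdh9, Cdh1 and Pak6 (0.999 each) for Dsg1a, and Aloxe3 (0.998), Ephx3 (0.998) and Lce1b (0.998) for Dsc1. The libraries fall into genotypes, and many genes share that step: 881 genes had r over 0.95 with Dsc2, 535 with Dsg2, 792 with Dsg1a and 425 with Dsc1.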

How the data were processed

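The authors deposited raw read counts, whole numbers for each RefSeq transcript, with no normalization, for 8 epidermal libraries. Reads were aligned to mm10 with TopHat version 2 and counted with HOMER, per the series design text in the labels; for HOMER, its version, strand setting and handling of multiply matching reads are not stated in the sources read here. Of 30521 transcripts, 29908 were named from RefSeq (GRCm38.p6) and 182 from GENCODE M21; the 431 without a name held 1.43% to 2.68% of the counts of a library and were left out. A gene was represented by its transcript with the largest total. Tables that join the libraries of a stage were not used.

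Tests used edgeR 4.0.16 in R 4.3.3 on the raw counts of all genes: filterByExpr with the 4 groups, TMM scaling, a quasi-likelihood fit with 1 mean per group to all 8 libraries, and Benjamini-Hochberg adjustment over the 16342 genes tested, with a threshold of 0.05. The SE of a log2 fold change was taken as its absolute value over the root of F. With 2 libraries a group, and no word on separate embryos, p-values reflect only the scatter of these libraries, which may be technical. Depth was 25226357 to 28895657 gene counts per library. The fit was also run on simulated counts in which few genes changed, and only in E17.5 knockouts. In the data many genes changed at both stages, so that run does not give the error rate of the calls here. The genes and lists were chosen with earlier results of these data known. All members and all genes of the desmosome list are named; of the adherens junction and simple epithelial lists, the 3 genes with the smallest adjusted p at E17.5 are named, with Epcam added; the cell type marker lists are given as sums, counts or medians. Alternatives were other size factors, DESeq2 1.42.0, other filters, summed transcripts, only the groups compared, the replicate number as a block, and each library left out.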

Additional observations from a re-analysis of the deposited data

Results flagged for a closer look

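The knockout effect differed between the stages, by the test of the difference itself in edgeR, for Dsg1a (-1.45 ± 0.23, E17.5 minus E15.5 on the log2 scale, n = 2 per group, adjusted p = 0.0049), Dsc3 (-1.33 ± 0.22, adjusted p = 0.0063), Pkp3 (-1.26 ± 0.18, adjusted p = 0.0026) and Dsc1 (-1.43 ± 0.36, adjusted p = 0.0486). All of these genes fell further at E17.5. With each library left out in turn, the difference of Dsg1a ran from -1.67 to -1.21, that of Dsc3 from -1.55 to -1.12 and that of Pkp3 from -1.50 to -1.09, and these 3 passed each time, while that of Dsc1 ran from -1.88 to -0.99 and did not always pass.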

How the results depend on the processing

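The counts of called genes were 9 at E15.5 and 10 at E17.5 under the 9 other settings and with each of the 8 libraries left out. Of 840 values recomputed for single genes over all comparisons, 797 kept direction and call, 24 lost and 10 gained the call, and 9 changed sign, none of which was called. For the difference between stages 4 genes were called, 7 with library totals as the only scaling, 6 without the filter on low counts, 5 under DESeq2, 3 with RLE factors or summed transcripts, and 3 to 5 when a library was left out. For E17.5 against E15.5 in controls the count was 1 to 6 when a library was left out. The mean of log2 values in place of the sum of forms moved the Dsg2 ratio from 1.93 to 1.16. Sign changes on leaving out a library were in the ranges -0.11 to 0.25 for Dsg3 at E15.5, -0.59 to 0.24 for Dsg1b and -0.27 to 0.15 for Dsc2 in the difference between stages, and -0.36 to 0.095 for Dsg2 and -0.40 to 0.019 for Dsc2 between knockout stages. With library totals, Dsg3 (0.022) and Dsc2 (0.047) changed sign between control stages. The cause of these shifts was not tested. With the replicate number as a block, Dsc1 lost its call in the difference between stages (adjusted p = 0.061, 3 genes called); no other call on the 10 genes changed. The replicate differences of the groups correlated at -0.13 to 0.13. This cannot show whether the replicate numbers pair the samples, because a shared litter or preparation need not move many genes alike. The block left the ratios at 1.93 and 6.21 with an exact sign-flip permutation p = 0.125, the smallest it allows. Dsg4 (0 to 146 counts per library), Pkp2 (14 to 75), Dsg1c in E17.5 knockouts (30 and 44) and Dsc2 in controls (159 to 200) rest on low counts, which limits their precision.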
